A study of Homo sapiens with 4 samples.

Results

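The transcriptome of PK-1 cells transfected with an SPRR1A plasmid was set against that of PK-1 cells transfected with a GFP plasmid, gene by gene, to describe which genes lay higher or lower while SPRR1A was present in large excess. PK-1 was established from a human pancreatic ductal adenocarcinoma of well-differentiated type. Both transient conditions received a pCAG plasmid with the Fugene HD reagent, which carried either FLAG-tagged SPRR1A or the green fluorescent protein GFP, and RNA was isolated after 48 h. The stable conditions of the same line, made with a retroviral vector that carried FLAG-tagged SPRR1A or the red fluorescent protein DsRed, were used only as a yardstick. Each condition had 1 library, so no difference has a replicate check, no test was possible and no p-value is given. For each gene the log2 TPM (reads of a gene per transcript length, scaled to a fixed total per library) in GFP cells was subtracted from that in SPRR1A cells. Genes whose TPM reached about 5 in both transient libraries were kept, and SPRR1A itself and small RNAs recognised by name were left out. This kept 10026 of 53826 entities, of which 9618 are protein-coding, 255 are long non-coding RNAs and 136 are pseudogenes. The median difference of these genes, -0.18, was subtracted from each, and the result is called the shift below. A positive shift means a higher level in SPRR1A cells relative to the typical gene, and shifts of 0.25, 0.5 and 1 correspond to 1.19-fold, 1.41-fold and 2-fold.

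SPRR1A is a small proline-rich protein of the cornified envelope, the protein layer that transglutaminases cross-link under the membrane of keratinocytes. The SPRR genes lie together on chromosome 1 in the epidermal differentiation complex, which also holds S100 genes and involucrin. SPRR1A is not a transcription factor, and a change in the level of other mRNAs after its overexpression would be indirect.

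SPRR1A was high in the libraries that carry its name. In the transient cells its log2 TPM was 16.60 with the SPRR1A plasmid and 3.56 with the GFP plasmid, and in the stable cells it was 10.93 with SPRR1A and 0.75 with DsRed. After transfection SPRR1A alone took up 9.90% of its library's TPM total, which by itself moves every other gene by -0.15 on the log2 scale, close to the median of -0.18 that was subtracted. Plasmid and endogenous transcripts are not separated in these values, and since RNA was measured in bulk, fewer transfected cells and less RNA per cell cannot be told apart. Of 11 markers of pancreatic ductal epithelium 10 were above the floor of the values, while 11 of 13 fibroblast markers and 11 of 13 leukocyte and endothelial markers were listed at 0 in both transient libraries. The fibroblast markers summed to a TPM of 6.86 and 8.21, and the leukocyte and endothelial markers to 36.5 and 35.7, in SPRR1A and GFP cells. Genes at a TPM of 1 or less are listed at 0, and read counts are not part of the values, so the depth in reads is unknown.

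Other SPRR genes differed little beside the excess of SPRR1A. SPRR1B, the closest relative, had a log2 TPM of 8.10 in SPRR1A and 8.27 in GFP cells, a shift of 0.01. SPRR3, an esophageal and oral cornified envelope protein, had 4.70 and 4.47, a shift of 0.42, and its shift in the stable cells was in the opposite direction at -0.30. SPRR4, SPRR2B, SPRR2C, SPRR2D, SPRR2E, SPRR2F and SPRR2G were listed at 0 in all 4 libraries, and SPRR2A reached 0.25 only in the transient GFP library. Within 1 Mb on each side of SPRR1A lay 24 of the genes kept, with a median shift of 0.05 and a range from -0.20 to 0.42. SPRR3 and CREB3L4, which encodes a membrane-bound transcription factor, were the 2 of these past 0.25. Involucrin (IVL), the scaffold of the cornified envelope, had a shift of 0.06 and S100A9 one of 0.12.

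The shifts were narrow as a whole. Their SD was 0.123, and 65.9% of the genes lay within 0.1 and 95.8% within 0.25 of the centre. Past 0.25 lay 220 genes on the higher side (2.19% of those kept) and 205 on the lower side (2.04%). Past 0.5 lay 22 (0.219%) and 11 (0.11%), and past 1 lay 1 (0.00997%) and 2 (0.0199%). Among the 9553 of these genes that also reached a TPM of 5 in both stable libraries, the difference between stable SPRR1A and DsRed, centred in the same way, had a larger SD of 0.166, with 629 genes (6.58%) higher and 487 (5.1%) lower by at least 0.25, and 34 (0.356%) and 31 (0.325%) by at least 0.5. The split of 220 to 205 depends on which genes set the centre. It was 159 to 284 with the centre on genes with a TPM of at least 50, 145 to 310 when SPRR1A was instead left out of the TPM total, and 31 to 2567 with no centring.

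Large shifts were more frequent at low levels. In the genes with a mean TPM from 5 to 10 the SD was 0.169 and 12.6% lay past 0.25. At a mean TPM from 30 to 100 the SD was 0.0935 and 1.31% lay past 0.25. Of the 447 genes with a mean TPM of 300 or more, 0 lay past 0.25, and their SD was 0.058. A shift of 0.25 was thus seen in weakly expressed genes and in none of the most abundant. At the edge of the rule, DNAH2 with 2.3204 in its lower library and ADCK5 with 2.3212 lay just inside, and SULT1A2 with 2.3175 and GGT7 with 2.3162 just outside. A further 391 genes reached this minimum in only 1 transient library, 35 in SPRR1A and 356 in GFP cells, a count made before centring, in which the typical gene is 0.18 lower in SPRR1A cells.

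**Figure D1:**
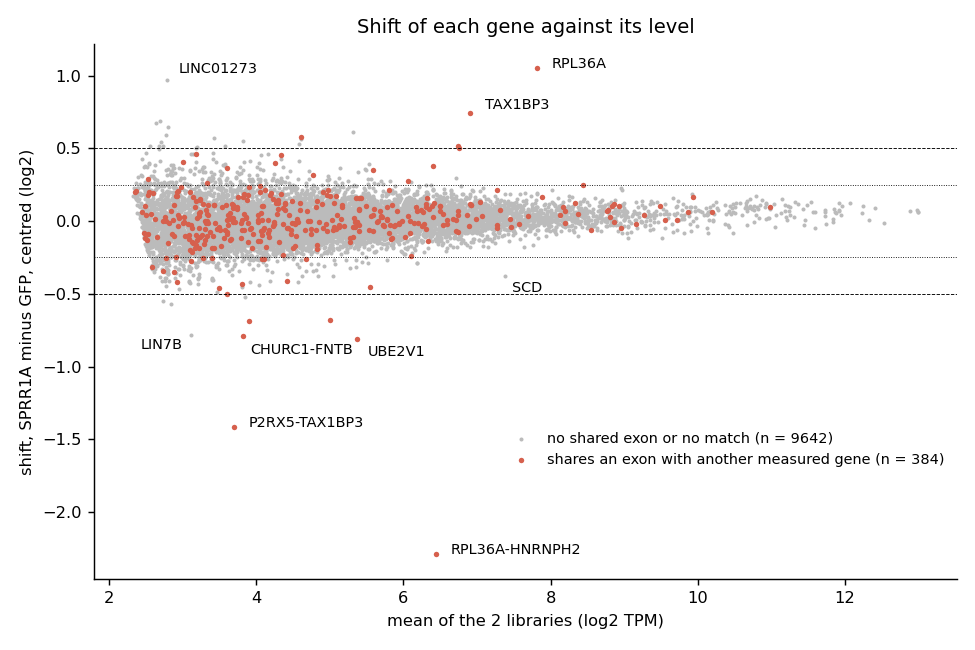
Shift of each of the 10026 genes (SPRR1A minus GFP, log2, centred) against its mean log2 TPM in the 2 transient libraries, with genes that share an exon with another measured gene in red and lines at 0.25 and 0.5 on both sides. The cloud narrows from an SD of 0.169 at the lowest levels to 0.058 at the highest, and the 3 genes past 1 are RPL36A-HNRNPH2, P2RX5-TAX1BP3 and RPL36A, all in red.

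Many of the genes furthest from the centre lay in loci where several annotated genes share exons. A read-through gene is a transcript that runs from one gene into its neighbour and is listed as a gene of its own, so that its exons are also exons of the neighbours. In GENCODE 44, 384 of the 9947 genes with a transcript there (3.86%) share an exon with another measured gene, and 178 (1.79%) lie in a read-through locus. An exon counts as shared if it overlaps an exon of the other gene on the same strand by any length. The other gene can be a small RNA, as with ASH1L and MIR555 or COX7C and SNORD138. Of the 32 annotated genes past 0.5, 12 share an exon (37.5%) and 11 of these lie in a read-through locus. All 3 genes past 1 do. The SD of the shifts was 0.224 among genes that share an exon, 0.289 in read-through loci and 0.116 among the 9563 genes that share none.

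The join between the neighbours' exons is shown here for 4 read-through models that are made up of exons of both neighbours, since apart from the joins such a model holds the same bases as its neighbours. Each line gives the last 15 bases of the upstream exon in lower case and the first 15 of the following exon in capitals, 5′ to 3′ on the transcript's strand, from hg38 with GENCODE 44 models.
RPL36A-HNRNPH2 (chromosome X, plus strand, 101395457 to 101411936): gataagaagagaaagCTACACCAAAATTGC
TMEM189-UBE2V1, named PEDS1-UBE2V1 in GENCODE (chromosome 20, minus strand, 50127975 to 50096820): tctgcatcaccacagGAGTAAAAGTCCCTC
CHURC1-FNTB (chromosome 14, plus strand, 64926080 to 65004249): atggatgaatttcagGCAAAAGTAGAAGAA
ISY1-RAB43 (chromosome 3, minus strand, 129130088 to 129095169): cagaaggctcctgggCTGCAGATCTGGGAC
Of the 562 bases of the RPL36A-HNRNPH2 model, 59.1% lie in exons of RPL36A and 40.9% in exons of HNRNPH2. The P2RX5-TAX1BP3 model, of 5905 bases, is different, with 29.5% in exons of P2RX5 and 17.3% in exons of TAX1BP3, so that it also holds bases of its own, and its join is not shown.

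RPL36A encodes a protein of the large ribosomal subunit. Its log2 TPM was 8.25 in SPRR1A and 7.38 in GFP cells, a shift of 1.05 and the highest of all genes kept. The read-through RPL36A-HNRNPH2 had 5.20 and 7.68, a shift of -2.29 and the lowest of all. HNRNPH2, the downstream gene, which encodes an RNA-binding protein, had 5.41 and 5.44, a shift of 0.16. The TPM of the locus summed to 383.7 in SPRR1A and 414.8 in GFP cells, a shift of 0.07. In the stable libraries RPL36A-HNRNPH2 had 5.32 and 5.34 and RPL36A 8.44 and 8.64, so the transient GFP library is the one that stood apart from the other 3.

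P2RX5-TAX1BP3 joins an ATP-gated ion channel gene to TAX1BP3, which encodes a PDZ domain protein. The read-through had 2.90 in SPRR1A and 4.50 in GFP cells, a shift of -1.41, and TAX1BP3 had 7.19 and 6.63, a shift of 0.74. In this locus the sum of the TPM also differed, with 161.0 against 131.6 and a shift of 0.47. The read-through had 4.76 and 4.60 in the stable libraries, so here the transient SPRR1A library stood apart.

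UBE2V1, a ubiquitin-conjugating enzyme variant that acts in lysine-63-linked ubiquitin chains, had 4.87 in SPRR1A and 5.87 in GFP cells, a shift of -0.81. The read-through TMEM189-UBE2V1 had 6.91 and 6.57, a shift of 0.52, and the locus sum a shift of 0.06. LINC01273, a non-coding RNA on the same chromosome with a shift of 0.97, was at 3.18 and 2.40 and had the second highest shift.

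The remaining loci of this kind showed smaller opposed shifts. CHURC1-FNTB, which joins a zinc finger gene to the farnesyltransferase beta subunit gene, had a shift of -0.79 beside 0.45 for CHURC1. ISY1-RAB43 had -0.69 beside 0.58 for ISY1, a splicing factor gene. CHMP3, a subunit of the ESCRT-III complex, had -0.68 beside 0.35 for RNF103-CHMP3. In C11orf98 and LBHD1, which overlap without a read-through entry, the shifts were 0.50 and -0.45. Over the 8 loci with a gene past 0.5, the largest shift within a locus had a median size of 0.74. The shift of the locus sum had a median size of 0.07, ranged from -0.05 to 0.47 and passed 0.25 in 1 locus. These loci were chosen by their most shifted gene, so a smaller shift of the sum was largely fixed in advance. In the NUDT3 locus, for example, NUDT3 had a TPM of 9.5 in SPRR1A and 15.4 in GFP cells, beside 974.1 and 987.8 for RPS10. The same medians over loci not chosen in this way were not computed.

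**Figure D2:**
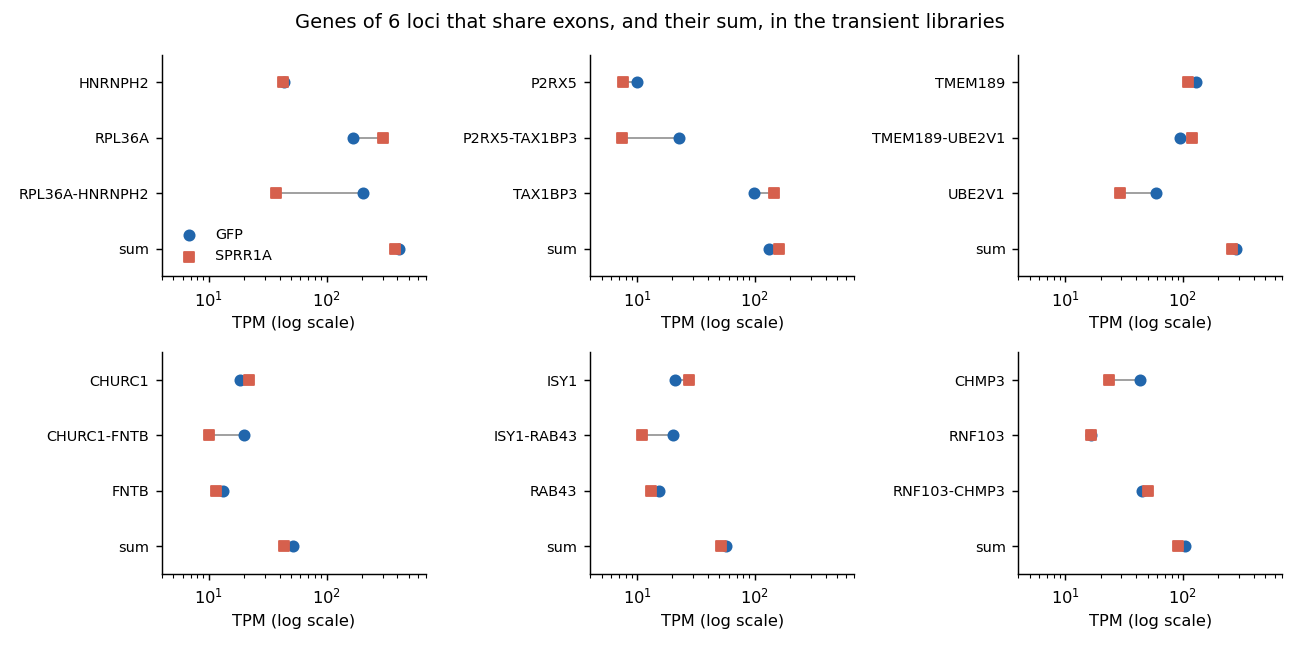
TPM (log axis) of each gene and of the sum in 6 loci whose genes share exons, in transient GFP cells (blue circles) and transient SPRR1A cells (red squares), 1 library each. Each locus holds at least 1 gene with a lower TPM in SPRR1A cells, such as RPL36A-HNRNPH2 with 36.8 against 204.6, and at least 1 with a higher TPM, and the sums lie closer together than the widest of their genes, with the P2RX5 locus the furthest apart at 161.0 against 131.6.

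Of the 30 most shifted genes without a shared exon in GENCODE, 15 on each side, 13 overlap the RefSeq span of another measured gene. An overlap of any length on either strand was counted. The share of all genes kept with such an overlap was not computed, so 13 of 30 has no yardstick. In 3 of the 13, chosen here after their values were seen, the overlapping gene lay far on the other side. TBC1D14, a regulator of autophagy, had 4.75 in SPRR1A and 4.41 in GFP cells, a shift of 0.53. LOC100129931, whose RefSeq span overlaps it on chromosome 4, was listed at 0 in SPRR1A cells and was at 3.69 in GFP cells. In the stable libraries the order was turned around, with TBC1D14 at 4.58 in SPRR1A and 5.24 in DsRed cells and LOC100129931 at 4.03 and 0. SLC46A1, the proton-coupled folate transporter, had 4.80 in SPRR1A and 4.42 in GFP cells, a shift of 0.56, and SARM1, an NAD-cleaving enzyme of axon degeneration whose span overlaps it on chromosome 17, had 1.10 and 3.50. In the stable libraries SLC46A1 had 4.63 and 5.22 and SARM1 3.61 and 1.66. PIR, a nuclear iron-binding protein, had 5.52 and 5.09, a shift of 0.61, beside PIR-FIGF, listed at 0 in SPRR1A cells and at 3.65 in GFP cells. PIR counts as sharing no exon only because PIR-FIGF has no entry of that name in GENCODE 44. Of the other 10, some lay on the same side as the gene they overlap, such as ZNF232 and LOC101928000 (0.68 and 0.65) and HIST2H2BC and HIST2H4B (-0.44 and -0.38). In read-through loci of GENCODE, KCTD14 was listed at 0 in SPRR1A cells and at 2.86 in GFP cells, beside 0.72 and 0.33 in the stable libraries, and SPECC1L-ADORA2A was listed at 0 in all libraries but transient GFP, where it had 2.84. How the authors' software assigned reads that match several genes is not given in the sources used here, and the part of that step in these shifts was not tested.

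Among the genes that share no exon, 16 lay higher and 4 lower by at least 0.5, and the best expressed of them was PIR with a TPM of 46.0 in SPRR1A cells. On the higher side were the zinc finger genes ZNF232 (2.88 in SPRR1A and 2.39 in GFP cells, shift 0.68), ZNF57 (3.62 and 3.23, 0.57) and ZNF77 (3.74 and 3.41, 0.51). The salivary cystatin gene CST4 (3.03 and 2.57) had a shift of 0.64, the antisense transcript UXT-AS1 (2.95 and 2.44) one of 0.69 and the class II antigen presentation gene HLA-DQB1 (2.88 and 2.52) one of 0.54. On the lower side LIN7B, a scaffold protein of cell polarity, had 2.63 and 3.60, a shift of -0.78. CTGF, a matricellular protein and a widely used readout of YAP and of TGF-beta, had 2.37 and 3.10, a shift of -0.55. NSFP1, a pseudogene of the vesicle fusion ATPase NSF, had 3.50 and 4.20, a shift of -0.52, and was lower in the stable SPRR1A cells as well, at -0.66. ZNF77 and CST4 were below the minimum in a stable library, and of the others only NSFP1 lay past 0.5 on the same side in the stable cells.

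Well expressed genes stayed nearer to the centre. Of the 2963 genes that reached a TPM of 50 in each transient library, the lowest was SCD, the stearoyl-CoA desaturase that makes monounsaturated fatty acids, with 7.10 in SPRR1A and 7.66 in GFP cells, a shift of -0.38. ZFP36, which destabilises AU-rich mRNAs, had 5.95 and 6.42, a shift of -0.29, and its relative ZFP36L2 a shift of -0.23. SREBF1, the transcription factor that drives fatty acid synthesis genes, had 5.77 and 6.16, a shift of -0.21. Apart from genes with shared exons, the highest was ELF3, an epithelial ETS factor, with 6.77 and 6.66, a shift of 0.29. SNHG15, set aside here only because it shares an exon with the small RNA SNORA9, had a shift of 0.38. AKAP8L, a nuclear scaffold protein, had a shift of 0.28 and MRPL55, a mitochondrial ribosomal protein, one of 0.27.

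Lipid synthesis genes had medians below 0. Of 14 fatty acid synthesis genes 2 lay above 0 and the median was -0.06, beside 0 over all genes kept, where 50% lie above 0 by construction. Their canonical transcripts had a median of 4627.5 bases, and of all genes between 3726 and 5417 bases 39.2% lay above 0, with a median of -0.02. After SCD, the lowest were the desaturase FADS1 (5.32 and 5.70, shift -0.19), fatty acid synthase FASN (TPM of 102 and 128, shift -0.15) and acetyl-CoA carboxylase ACACA (log2 TPM of 5.30 and 5.61, shift -0.13). Only SCD passed 0.25. Of 25 sterol synthesis genes 6 lay above 0, with a median of -0.03, and STARD4, a sterol carrier, had the lowest shift at -0.26. In the stable cells the medians of these lists were 0.04 and 0.07, and SCD had a shift of 0.22.

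Early-response genes were spread to both sides. Of 36 immediate early and ERK feedback genes 18 lay above 0, with a median of -0.01. The transcription factor EGR1 had 4.76 in SPRR1A and 5.32 in GFP cells, a shift of -0.38, whereas FOS had 3.42 and 3.33, a shift of 0.28. Among 12 TGF-beta and BMP response genes 2 lay above 0, with a median of -0.05, and the ligand TGFB2 had a shift of -0.25. EGFR, the EGF receptor, had 5.92 and 6.28, a shift of -0.17, and its ligand betacellulin (BTC) 2.67 and 2.57, a shift of 0.29.

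Genes of the interferon response are of interest in a plasmid transfection because cells sense cytosolic DNA. Both transient conditions received plasmid. Of 48 interferon-stimulated genes 16 lay above 0, with a median of -0.04. The RNA sensor homologue DDX60 had 4.82 in SPRR1A and 5.30 in GFP cells, a shift of -0.30, while it was at 2.37 and 2.27 in the stable libraries. OAS2, an RNA-activated oligoadenylate synthetase, had 3.09 and 3.55, a shift of -0.28, beside 1.23 and 0.78 in the stable libraries. IRF9, a subunit of the ISGF3 factor, had 4.50 and 5.03, a shift of -0.34, and USP18, a negative regulator of the response, had 3.34 and 3.17, a shift of 0.36. Of the 48, 1 lay past 0.25 on the higher side and 3 on the lower side, beside 2.19% and 2.04% of all genes kept. Of 20 inflammatory chemokine and cytokine genes 15 lay above 0, with a median of 0.08, led by CSF2, the growth factor GM-CSF, at 3.31 and 3.14 and a shift of 0.34.

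**Figure D3:**
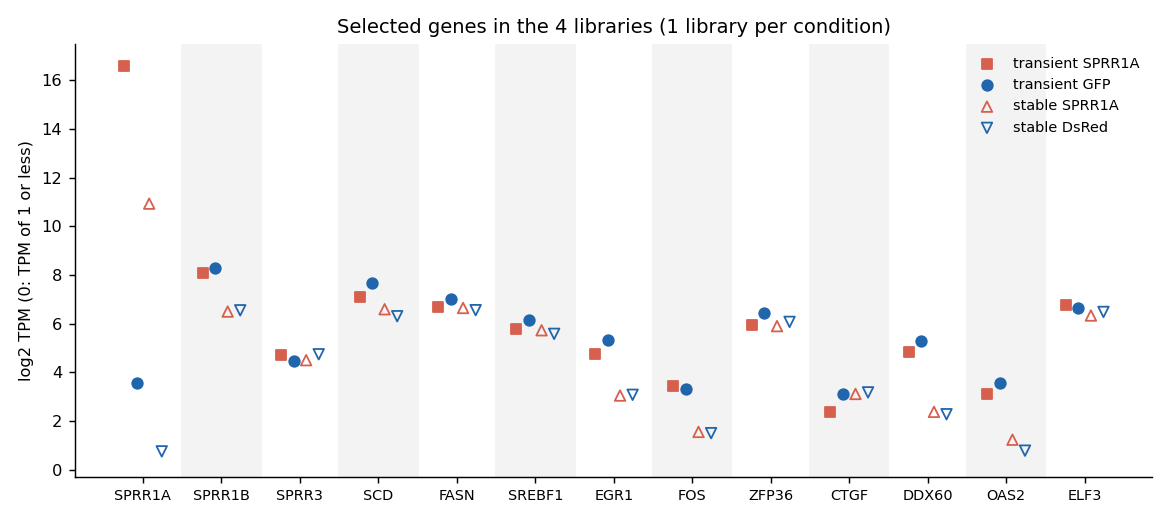
Log2 TPM of 13 genes in the 4 libraries, 1 library per condition, with transient libraries as filled and stable libraries as open symbols. SPRR1A is at 16.60 in transient SPRR1A cells and 3.56 in GFP cells, whereas SCD, EGR1, ZFP36, CTGF, DDX60 and OAS2 lie slightly lower in SPRR1A than in GFP cells.

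The markers that define pancreatic cancer subtypes and epithelial-mesenchymal transition (EMT) were close to the centre. Of 24 basal-like signature genes, from a list that the study applied to these libraries, 20 were kept. Their median of 0.01 turns negative with the centre on genes with a TPM of at least 50. Only SPRR3 of these lay past 0.25. Keratin 17 had 9.10 in SPRR1A and 9.23 in GFP cells, a shift of 0.05, and keratin 7 of simple epithelia 12.20 and 12.28, a shift of 0.11. Of 24 classical signature genes 4 were kept, led by lysozyme (LYZ, 2.70 and 2.60, shift 0.28). The classical genes TFF2, TFF3, REG4 and LGALS4 were listed at 0 in all 4 libraries. Among 14 EMT genes the median was -0.03 and none lay past 0.25. E-cadherin (CDH1) had 7.51 and 7.75, a shift of -0.05, vimentin (VIM) had 5.28 and 5.23, a shift of 0.23, and ZEB1, TWIST1 and N-cadherin (CDH2) were listed at 0 in all 4 libraries. Of 15 cornified envelope and squamous differentiation genes 9 lay above 0, with a median of 0.01, whereas the stable median was 0.20.

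Cytoplasmic ribosomal protein genes lay on the higher side almost throughout. Of 82 cytoplasmic ribosomal protein genes 81 lay above 0, with a median shift of 0.09. Without RPL36A they ranged from -0.02 to 0.17, and RPS25 (10.78 in SPRR1A and 10.80 in GFP cells) had the highest shift at 0.17, followed by RPS10 at 0.16 and RPS19 at 0.15. Without centring their median was -0.09, beside -0.18 over all genes kept. The nuclear genes of respiratory complexes II to V had a median of 0.06 with 32 of 39 above 0, complex I genes 0.04 with 31 of 38, proteasome genes 0.05 with 29 of 31, mitochondrial ribosomal protein genes 0.05 with 55 of 78, and translation factors 0.05 with 32 of 35. Of the shortest genes of any kind, 69.0% lay above 0. Of the 2005 genes with the highest mean level 67.0% did, and genes with a mean TPM of 300 or more had a median of 0.05. Translation factors and proteasome genes had a median log2 TPM of 8.41 and 8.17, and canonical transcripts with a median of 2910 and 1540 bases. Apart from RPL36A, only MRPL39 and MRPL55 of these lists passed 0.25. In the stable cells the ribosomal protein median was on the other side, at -0.11, and 3 of 82 lay above 0.

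Ribosomal protein mRNAs are known for a pyrimidine tract right at their start, which ties their translation to mTOR signalling, and the start sites of the genes with the highest and lowest shifts are shown to see whether the tract goes with the shift. Each line holds 10 bases before and 20 bases from the annotated RefSeq start on GRCh38, 5′ to 3′. Capitals mark a C followed by at least 4 pyrimidines, where it begins within 5 bases of the start. Genes that share an exon with another measured gene, such as RPL36A and RPS10, were left out of this ranking. The first 3 have the highest shifts among the other ribosomal protein genes with a start sequence, and the last 3 the lowest.
RPS25 (chromosome 11, minus strand, 119018324 to 119018353): gcagcgcttcCTTTTTgtccgacatcttga
RPS19 (chromosome 19, plus strand, 41860245 to 41860274): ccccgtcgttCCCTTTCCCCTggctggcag
RPL9, with no such tract (chromosome 4, minus strand, 39458903 to 39458932): taatgacgacagacgttctttctttgctgc
FAU (chromosome 11, minus strand, 65122115 to 65122144): tcgcttcttcCTCTTTCTCgactccatctt
RPS28 (chromosome 19, plus strand, 8321486 to 8321515): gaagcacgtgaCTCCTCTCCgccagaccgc
RPL35A (chromosome 3, plus strand, 197950180 to 197950209): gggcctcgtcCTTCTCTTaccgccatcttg
By this rule RPL9 among the 5 highest and RPS27L among the 5 lowest had no tract, and the other genes at both ends had one. In RPL9 a C followed by pyrimidines lies further downstream of the annotated start, outside the bases searched, so it is not shown to lack a tract. A tract was found within 5 bases of the start on the transcribed strand in 52 of 65 ribosomal protein genes with a start sequence (80.0%). The share was 22.8% of all genes kept and 21.1% of all promoters in the table. Among the genes kept other than ribosomal proteins, those with the tract had a median shift of -0.0001 and those without it one of -0.0006. Ribosomal protein genes with the tract had a median of 0.09 and those without it 0.07.

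Shifts went with transcript length. In 5 groups of equal size by the length of the canonical transcript, from the shortest to the longest, the median shift was 0.05, 0.02, 0.01, -0.02 and -0.05. Of the shortest genes, up to 1686 bases, 69.0% lay above 0, and of the longest, from 5417 bases, 30.6%. The order held at each level of expression, from 0.02 against -0.07 at the lowest levels to 0.06 against -0.02 at the highest. The shortest genes that belong to none of the ribosomal, respiratory, proteasome and translation factor lists had a median of 0.05 too. Across genes, shift and length had a Spearman correlation of -0.31 over 9947 genes, which share the same 2 libraries and are not independent. In the stable cells the medians ran the other way, from -0.09 in the shortest to 0.07 in the longest genes, with a Spearman correlation of 0.37. GC content showed less, with medians from -0.03 to 0.02 across 5 such groups, while the stable medians went from 0.12 at the lowest GC content to -0.09 at the highest. RNA integrity and fragment size of the libraries are not given in the sources used here, and their part was not tested.

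**Figure D4:**
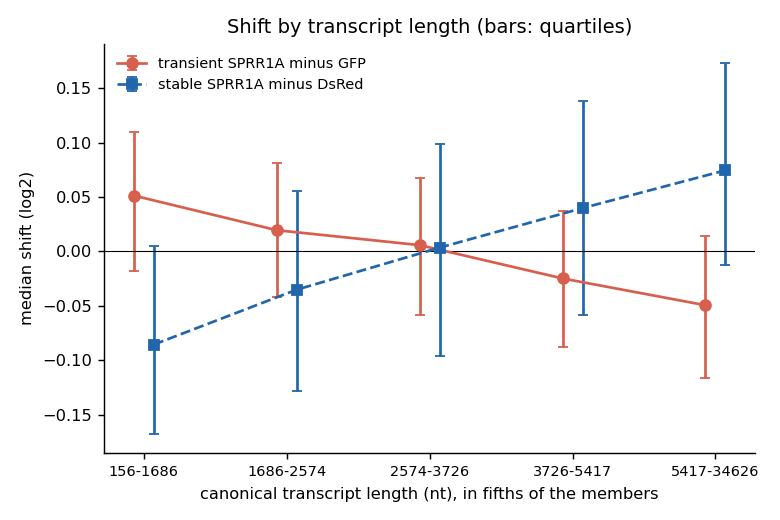
Median shift with quartiles in 5 groups of equal size by canonical transcript length (range of each in bases on the axis) for transient SPRR1A minus GFP (red circles) and stable SPRR1A minus DsRed (blue squares). The transient medians go down from 0.05 to -0.05 with length and the stable ones go up from -0.09 to 0.07.

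Kinesins, zinc transport genes and claudins had medians below 0. Of 22 kinesins, motor proteins of microtubules whose canonical transcripts had a median of 5604 bases, 8 lay above 0, with a median of -0.05, the same as over the longest genes of any kind, of which 30.6% lay above 0. KIF14, which acts in cytokinesis, had 2.95 in SPRR1A and 3.50 in GFP cells, a shift of -0.36, and the kinetochore motor CENPE 3.36 and 3.84, a shift of -0.30. Among 51 G2/M genes only these 2 lay past 0.25 and the median was -0.01. In G1/S and replication genes the median was 0.003, and the DNA polymerase subunit gene POLE2 had 4.20 and 3.92, a shift of 0.46. Of 6 metallothionein and zinc transport genes 1 lay above 0, with a median of -0.12, and of 6 claudins, the barrier proteins of tight junctions, 2 lay above 0, with a median of -0.10, from CLDN12 and CLDN1 at -0.19 and -0.18 to CLDN7 at 0.12.

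Families were also ranked by the letters that gene names share. Of 167 families with at least 8 genes the highest medians were those of THAP zinc finger genes (0.11, 8 of 10 above 0), TIMM import genes of the mitochondrial inner membrane (0.09, 12 of 14), RPL (0.09, 52 of 56), RNA polymerase subunits named POLR (0.09, 24 of 30) and NDUFB (0.08, 9 of 11). The lowest were nuclear receptors named NR (-0.11, 3 of 10), the phosphoinositide kinase genes named PIK (-0.11, 1 of 8), GPR receptors (-0.10, 1 of 11), ZFP genes (-0.09, 0 of 8) and the EXOC exocyst genes (-0.08, 3 of 9). Median canonical transcript lengths of the highest families, in this order, were 2118.5, 1498.5, 757.5, 2113 and 651 bases. Those of the lowest were 2557.5, 7316.5, 3182, 3490 and 4456 bases. Of the shortest genes of any kind 69.0% lay above 0, and of the longest 30.6%. Of 185 ZNF genes 13 lay past 0.25 on the higher side and 1 on the lower side, where 2.19% and 2.04% of all genes kept do so. Of the genes with a mean TPM from 5 to 10, 6.02% and 6.53% do so, and of the 3667 from 10 to 30, 94 and 84 genes. The ZNF genes are weakly expressed, with a median TPM of 10.5, and had a median shift of 0.02 that turns negative with the centre on genes with a TPM of at least 50. Replication-dependent histone genes, whose mRNAs lack a poly(A) tail, had 5 higher and 3 lower by at least 0.25 of 20, at a median TPM of 14.3, against 4.85% of all genes on either side with a mean TPM from 10 to 30, and went from HIST1H2BJ at -0.57 to HIST1H2BG at 0.55. Small nucleolar RNA host genes ranged from SNHG4 at -0.43 to SNHG15 at 0.38. Of the 23 kept, 15 share an exon with another measured gene, among them SNHG4 with MATR3 and SNHG15 with the small RNA SNORA9. The sum of MATR3 and SNHG4 had a shift of -0.11.

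**Figure D5:**
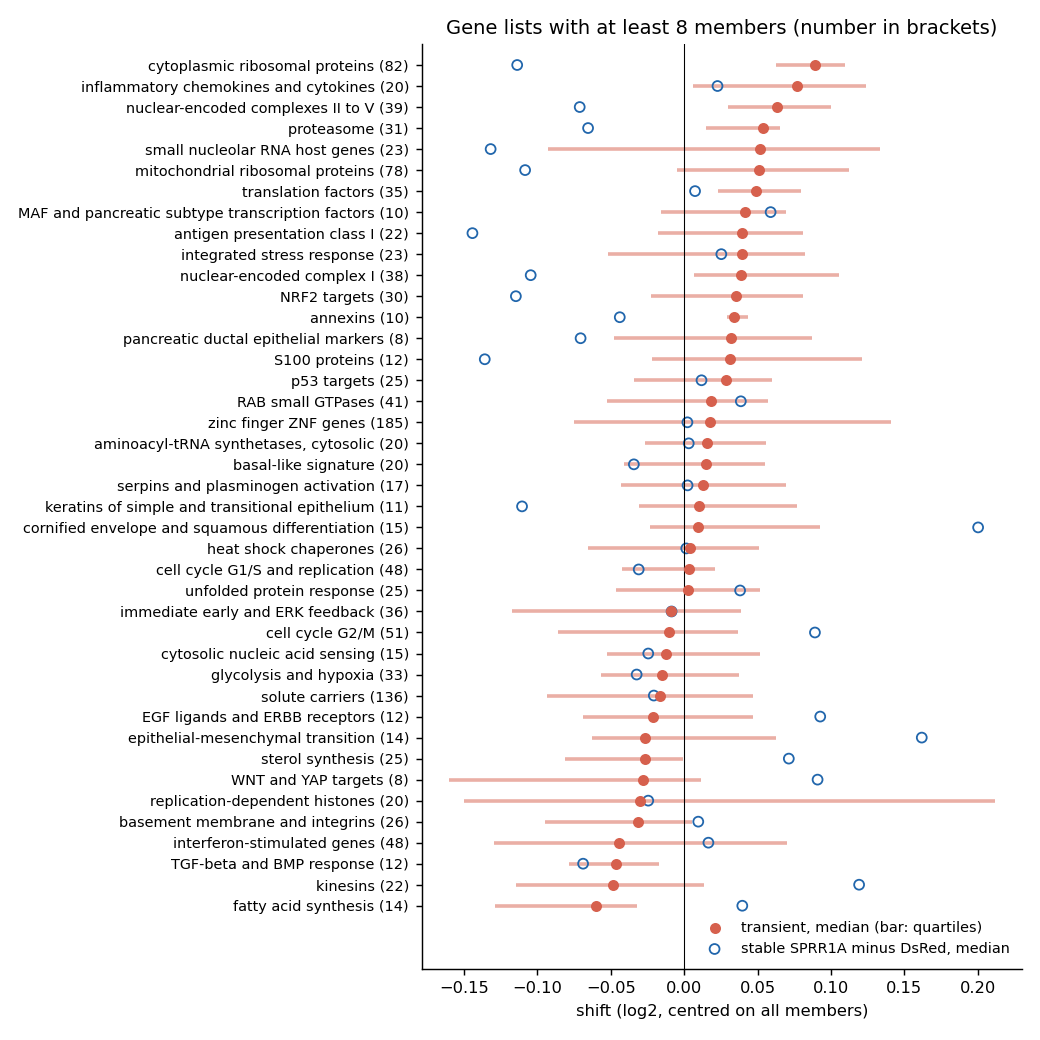
Median shift (red points, with quartiles as bars) of each gene list with at least 8 genes kept, ordered by its median, beside the median of the same genes in stable SPRR1A minus DsRed (open blue circles). Ribosomal protein genes are the highest at 0.09 and fatty acid synthesis genes the lowest at -0.06. Medians within 0.03 of 0 can change side with another centre, and with no centring every transient median is 0.18 lower and lies below 0.

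The transient and stable models share no library. Of the 9553 genes measured in all 4 libraries, 10 were higher by at least 0.25 in both. They make up 5.56% of the 180 higher in the transient cells, while 6.58% of all 9553 were higher in the stable cells. They make up 1.59% of the 629 higher in the stable cells, while 1.88% of all were higher in the transient cells. On the lower side 13 were shared. They make up 7.74% of the 168 lower in the transient cells, while 5.1% of all were lower in the stable cells. They make up 2.67% of the 487 lower in the stable cells, while 1.76% of all were lower in the transient cells. In opposite directions, 30 of the 180 higher in the transient cells were lower in the stable cells, where 5.1% of all were lower. Of the 168 lower in the transient cells, 21 were higher in the stable cells, where 6.58% of all were higher. Higher in both were LRCH3, a cytoskeletal leucine-rich repeat protein (transient 0.38, stable 0.58), ARL14, a small GTPase of vesicle movement (0.29 and 0.38), C12orf29, an RNA ligase (0.26 and 0.38), RABGEF1, an exchange factor for RAB5 (0.26 and 0.31), and LINC00704 (0.29 and 0.33). Lower in both were NSFP1, LBHD1 (-0.45 and -0.48), DNAL4, a dynein light chain (-0.41 and -0.45), SH3BP2, an adaptor protein (-0.39 and -0.37), and PCSK1N, an inhibitor of a prohormone convertase (-0.34 and -0.31). LBHD1 and DNAL4 share exons with C11orf98 and SUN2. Across genes the transient and stable shifts had a Pearson correlation of -0.19 and a Spearman correlation of -0.23, as a description over genes of 4 libraries whose length and GC trends run in opposite directions.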

How the data were processed

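From Trizol-isolated RNA the authors had stranded mRNA libraries made and sequenced from both ends. Alignment by the authors used Strand NGS with default settings and hg38 transcripts. The deposited values are the log2 of the TPM of each entity, 1 library per condition, and no value lies below 0. The release of the software, the annotation and the rule for reads shared by several genes are not given in the sources used here.

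For this report the log2 TPM of transient GFP was subtracted from that of transient SPRR1A and the median of the genes kept was subtracted. Gene positions and classes came from RefSeq by Entrez identifier (10015 of 10026 matched), transcripts and shared exons from GENCODE 44 by symbol (9947 matched). Named genes are the 15 highest and lowest, the 10 highest and lowest with a TPM of at least 50, up to 4 per list furthest from the centre, up to 5 per direction shared by both models, the SPRR family, signature and EMT genes, and, added after the values were seen, the 15 highest and lowest without a shared exon and genes that overlap them. Read-through genes were taken from GENCODE's tag instead of from name patterns, which also matched other genes. The members and lists were chosen with earlier results of these data known. Calculations were tested on simulated data. Python 3.11.15, numpy 2.4.6, pandas 2.3.3 and matplotlib 3.10.9 were used.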

Additional observations from a re-analysis of the deposited data

Results flagged for a closer look

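Past 0.5 in opposite directions in the transient and the stable model were 3 genes. CHURC1-FNTB had a shift of -0.79 in the transient and 0.66 in the stable model, TBC1D14 had 0.53 and -0.72, and SLC46A1 had 0.56 and -0.66. With 1 library per condition, these differences between models were not tested. All 3 overlap other measured genes, namely CHURC1 and FNTB, LOC100129931 and SARM1. For LOC100129931 and SARM1 this is an overlap of RefSeq spans, with strand not considered.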

How the results depend on the processing

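No paired analysis was possible because a condition holds only 1 library, and for the same reason no library could be left out. Counts are given as higher and lower. Past 0.25 there were 31 and 2567 genes with no centring, 145 and 310 with SPRR1A removed from the TPM sum, 114 and 86 with the TPM minimum in both libraries set to 10, 39 and 30 with it at 20, 670 and 723 with it at 1, and 121 lower with log2(TPM + 1). Past 0.5 there were 4 and 84 with no centring, 14 higher with the centre on genes with a TPM of at least 50, 13 higher with SPRR1A left out, 14 and 7 with log2(TPM + 1), 145 and 149 at a minimum of 1, 9 and 6 at 10, and 7 and 3 at 20, and, as an alternative chosen after seeing the data, 4 lower among genes that share no exon. Past 1 there were 0 higher with no centring, 10 and 13 at a minimum of 1, 1 lower at 10, at 20 and in protein-coding genes, and 0 and 0 among genes that share no exon. The number of genes kept was 12817, 8210 and 5928 at minima of 1, 10 and 20, and the cause of the other moves was not tested. The 68 genes recomputed are the most shifted genes, among all those kept, at a TPM of at least 50, without a shared exon and in both models. All kept their direction with each choice of centre and pseudocount. For the centre this was fixed by the selection, since no choice moved a gene by more than 0.18 and these genes had larger shifts. Other genes with a shift between 0 and 0.18 are lower in SPRR1A cells with no centring, such as RPS25, RPS10, RPS19, KRT7, KRT17, SPRR1B, IVL and HNRNPH2. Of 44 list medians, 34 kept their side of 0 with the centre on genes with a TPM of at least 50, 31 with SPRR1A left out of the total, and 17 with no centring, which lowers every gene by 0.18.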
